A study of Homo sapiens with 120 samples.

Results

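The late response of U2OS cells to thapsigargin is described here by setting the RNA levels of all genes after 24 h of the drug against those after 4 h. The comparison rests on 6 of the 120 libraries in the series: 3 wells of Parental cells at 100 nM thapsigargin for 24 h and 3 at the same dose for 4 h, chosen by their labels alone. U2OS is an established human osteosarcoma line, and Parental cells are those without Dmr-PERK, a fusion of the mouse PERK kinase domain with a DmrB domain that the ligand AP20187 brings together. Of 57665 genes in the count table, 26998 had enough counts to be tested. For comparison, 6 libraries of untreated Parental wells (3 at 4 h, 3 at 24 h) and 6 of Dmr-PERK cells under 100 nM thapsigargin without AP20187 (3 at 4 h, 3 at 24 h) went through the same fit. The labels give the genotype of both lines as WT. Dmr-PERK cells carry the construct stably, and the labels do not say whether they are 1 clone. The labels do not say that the wells were separate cultures. The p-values thus measure the spread between wells of a group, pooled over all 120 libraries, which may be technical.

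Thapsigargin blocks SERCA, the pump that fills the endoplasmic reticulum (ER) with calcium, and proteins misfold in an ER that has lost its calcium. Sensors in the ER membrane then start the unfolded protein response. PERK (gene EIF2AK3) phosphorylates the translation factor eIF2α, which slows most protein synthesis while ATF4 and then CHOP (gene DDIT3) are made. IRE1 (gene ERN1) splices the mRNA of XBP1, and ATF6 is released by proteases in the Golgi; both arms raise chaperones, ER-associated degradation (ERAD) and the secretory machinery. Feedback, such as the eIF2α phosphatase subunit GADD34 (gene PPP1R15A), lets translation return.

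Totals of the estimated counts were 42.1, 38.6 and 22 M in the 4 h libraries and 18.9, 20.8 and 22 M in the 24 h libraries. Levels are given in CPM, the count scaled by the library total after TMM scaling. A level is thus a share of the library, and in bulk RNA fewer cells of a type and less RNA per cell cannot be told apart. TMM factors were 0.963 to 0.977 at 4 h and 1.081 to 1.109 at 24 h, and none of the 6 libraries stood apart from its group. Of 13 listed markers of the osteoblast and mesenchymal lineage 11 were tested, and 1 had 0 counts at 4 h and 1 at 24 h. The sum of those tested was mostly VIM and COL1A1, given below. It moved with time: 5434 to 5753 CPM at 4 h and 3016 to 3138 CPM at 24 h. Of the 11 tested, 1 was higher and 8 were lower. In untreated wells the sum was 7758 to 7844 CPM at 4 h and 7698 to 7826 CPM at 24 h. Epithelial markers (2 of 11 higher, 6 lower) summed to 670 to 680 CPM and then 400 to 426 CPM, mostly KRT8 and KRT18. The count higher was 1 with no expression filter, with limma on TPM, after thinning, and without thapsigargin 24 h replicate 2 or 3 or 4 h replicate 1 or 3. Endothelial markers (0 of 7 higher, 4 lower) summed to 9.86 to 10.3 CPM and then 3.86 to 4.67 CPM. Blood cell markers (0 of 5 higher, 2 lower) summed to 4.09 to 4.73 CPM and then 0.446 to 0.492 CPM, and 4 of 10 listed markers, the haemoglobin gene HBA1 among them, had 0 counts at each time. The part of these shifts in the results was not tested.

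Between 4 and 24 h of thapsigargin, genes that fold, glycosylate and move proteins in the ER mostly rose, and inflammatory, immediate early, cytoskeletal, matrix and cell division genes mostly fell. Several transcription factors of the stress response itself came down from their 4 h level. By edgeR's quasi-likelihood test with Benjamini-Hochberg adjustment, 6810 genes were higher at 24 h (25.2% of genes tested) and 7639 were lower (28.3%) at an adjusted p under 0.05. Of these calls 47.1% were higher, but 54.6% were with upper-quartile scaling, 56.4% with limma on log2(TPM + 1) and 55.7% with limma on log2(TPM + 0.1), so which direction held more genes depended on the setting. Such genes are named as called, and "rose" and "fell" are kept for them. A value in brackets after levels is the log2 fold change, with its standard error after ±, and a gene that rose or fell by a value did so on the log2 scale. At least 2-fold higher were 2020 genes (7.48%), and at least 2-fold lower 2728 genes (10.1%). The median log2 fold change over all genes tested was -0.01. Of 14779 protein-coding genes 4213 rose and 5570 fell (median -0.07), whereas of 2751 lincRNA genes 539 rose and 333 fell (0.08), and of 2412 antisense genes 476 rose and 291 fell (0.07). In untreated wells these medians were -0.01, 0.06 and 0.03 in that order. Upper-quartile scaling alone moved the median over all genes tested by 0.05 under thapsigargin. If reads were counted without regard to strand, on which the sources are silent, an antisense gene and its partner share their reads.

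**Figure D1:**
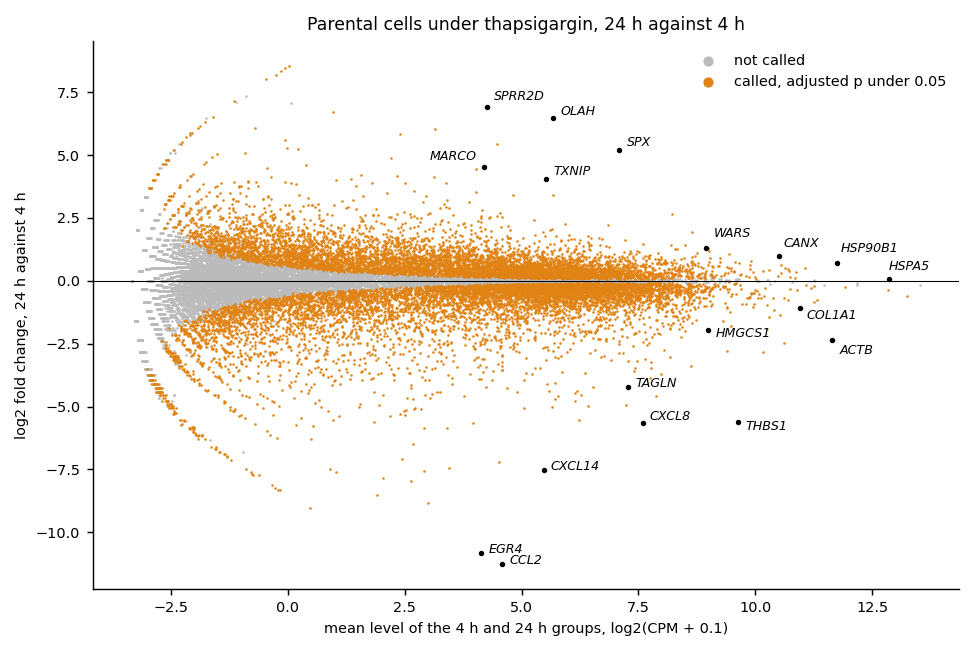
Log2 fold change, 24 h against 4 h of thapsigargin in Parental cells, of the 26998 genes tested (vertical axis) against the mean level of both groups as log2(CPM + 0.1) (horizontal axis). Each point is a gene, orange where called and grey where not, with some genes named beside black points; orange points lie on both sides of 0, 6810 above and 7639 below.

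Untreated wells changed over the same hours as well. Without drug 5191 genes rose (19.2%) and 5512 fell (20.4%) between 4 and 24 h. The share higher was 48.5% of these calls, 56.9% with upper-quartile scaling, and 58.5% and 58% with limma on log2(TPM + 1) and log2(TPM + 0.1). Genes that rose in both conditions numbered 2513, or 36.9% of the thapsigargin list and 48.4% of the untreated list, and genes that fell in both numbered 3393, or 44.4% and 61.6%. Opposite calls were fewer: 850 genes rose with the drug and fell without it, and 1355 fell with it and rose without it. Pearson's r between the log2 fold changes was 0.295 across the 26998 genes, which are not independent replicates; the comparisons share no library. The difference (the change with thapsigargin minus the change untreated, called the interaction below, which shares libraries with both) was above 0 for 4886 genes (18.1%) and below 0 for 5890 (21.8%). Against untreated wells of the same time, thapsigargin raised 5638 genes (20.9%) and lowered 5325 (19.7%) at 4 h, and raised 7225 (26.8%) and lowered 7522 (27.9%) at 24 h. At 4 h the share higher was 51.4%, and 41.4% with upper-quartile scaling, and at 24 h it was 49%, and 53.2% with limma on log2(TPM + 1).

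**Figure D2:**
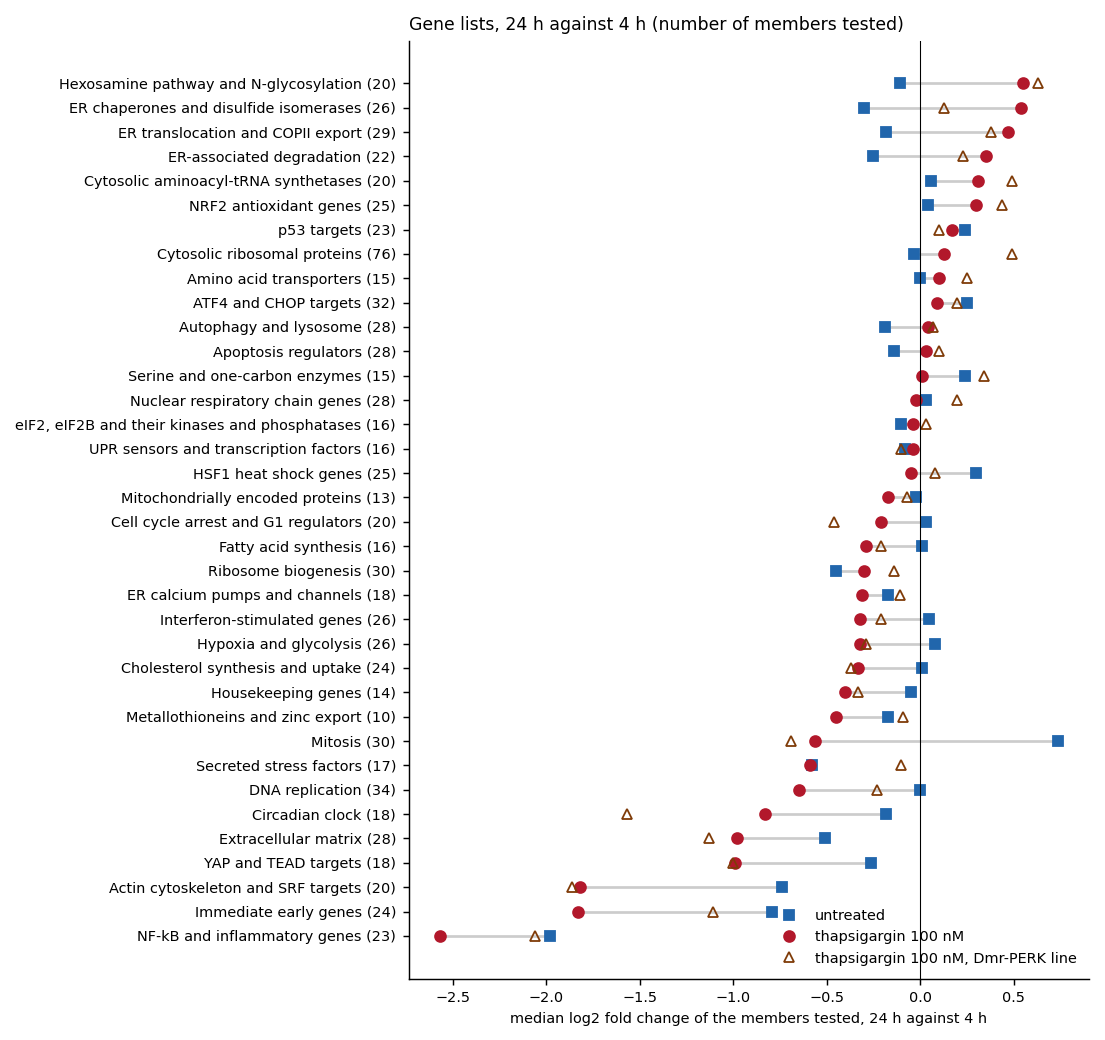
Median log2 fold change, 24 h against 4 h, of the tested members of each gene list (number in brackets) in Parental cells under thapsigargin (red circles), untreated Parental cells (blue squares) and Dmr-PERK cells under thapsigargin (open triangles). Under thapsigargin the Parental medians run from -2.57 for NF-kB and inflammatory genes to 0.55 for the hexosamine pathway and N-glycosylation, whose untreated median is -0.11.

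The folding machinery of the ER rose for most of its members, while its central chaperone was near its 4 h level. Of 26 ER chaperones and disulfide isomerases 19 rose and 6 fell, with a median log2 fold change of 0.54. In untreated wells 0 rose and 23 fell (median -0.30), and the interaction was above 0 for 25 and below 0 for 0. HSPA5 encodes BiP, the Hsp70 of the ER that also binds the stress sensors (chr9:125234853-125241330, minus strand, GRCh38). It was at 7158, 7136 and 7298 CPM at 4 h and at 7637, 7714 and 7359 CPM at 24 h, so each 24 h library was slightly above each 4 h library. The log2 fold change was 0.07 ± 0.04 (SE) with an adjusted p of 0.107. It was called under 8 of 10 other settings, at 0.09 to 0.17. The means were 9357 CPM at 8 h and 9438 CPM at 16 h, above both ends. HSPA5 fell in untreated wells from 1402, 1256 and 1262 CPM to 604, 614 and 608 CPM (-1.10), and the interaction was 1.18 ± 0.06.

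Other chaperones were well above their 4 h level. HSP90B1, the ER Hsp90 known as GRP94, rose from 2592, 2646 and 2627 CPM to 4341, 4307 and 4155 CPM (0.70 ± 0.04), with an adjusted p of 3.37e-27. CANX, the lectin calnexin that holds new glycoproteins, rose from 970, 988 and 970 CPM to 1990, 1953 and 1903 CPM (1.0 ± 0.03), and in untreated wells its log2 fold change was -0.05. DNAJC10, a reductase of the ER, rose from 312, 317 and 312 CPM to 711, 713 and 699 CPM (1.17 ± 0.03). In all 3 genes, as in every gene below given as rising or falling with its 3 values per group, the groups did not overlap. Of all 26998 genes tested, 7526 had each 24 h library above each 4 h library, and 8503 had each below. Most genes named here were chosen on the same libraries, so the lack of overlap is a description. FKBP14, a prolyl isomerase, rose from 102, 102 and 100 CPM to 223, 217 and 220 CPM (1.11 ± 0.04), and SIL1, which exchanges the nucleotide of BiP, rose by 1.08. HYOU1, an exchange factor of BiP as well, rose by 0.64. Of the members that fell, DNAJB9 and SDF2L1 changed little. DNAJB9, which recruits BiP to IRE1, fell from 164, 164 and 157 CPM to 137, 135 and 136 CPM (-0.25 ± 0.04), and SDF2L1 fell from 300, 282 and 292 CPM to 242, 256 and 247 CPM (-0.23 ± 0.07). With limma on log2(TPM + 1) 0 of the 26 were lower, with adjusted p = 0.256 for SDF2L1 and 0.241 for DNAJB9.

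The promoters of HSPA5 and HSP90B1 are shown because both hold the ER stress element (ERSE, CCAAT followed after 9 bases by CCACG), a site known to be bound by ATF6 with NF-Y, while their changes differed. Each is the 250 bases before the gene's start, 5′ to 3′ on the gene's strand, from RefSeq (GRCh38.p14), with ERSE matches in capitals. HSPA5 lies at chr9:125241344-125241593 on the minus strand, with a match ending 47 bases before the start. HSP90B1 lies at chr12:103930160-103930409 on the plus strand, with matches ending 175 and, on the reverse strand, 70 bases before it.
HSPA5: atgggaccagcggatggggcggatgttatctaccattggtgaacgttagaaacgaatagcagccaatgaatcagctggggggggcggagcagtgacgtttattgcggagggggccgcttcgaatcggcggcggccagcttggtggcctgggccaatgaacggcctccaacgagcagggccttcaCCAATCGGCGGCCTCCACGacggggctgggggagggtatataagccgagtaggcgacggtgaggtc
HSP90B1: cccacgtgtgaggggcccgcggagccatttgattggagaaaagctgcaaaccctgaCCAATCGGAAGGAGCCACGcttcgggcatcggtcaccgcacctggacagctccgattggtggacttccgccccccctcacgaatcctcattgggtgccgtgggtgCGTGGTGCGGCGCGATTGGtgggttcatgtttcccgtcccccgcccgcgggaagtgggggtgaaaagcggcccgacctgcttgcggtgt
Searched on both strands from 250 bases before to 50 after the start, ERSE was in 22 of 27305 RefSeq promoters (0.0806%). It was in 18 of the 13626 promoters of genes tested (0.132%). For genes at least 2-fold higher at 24 h it was in 1 of 802 (0.125%), and for those at least 2-fold lower in 0 of 1501. In this list it was in 7 of the 24 matched promoters (29.2%). Of the 7 genes, CALR (0.37), CANX, CRELD2 (0.73), HSP90B1 and SERP1 (0.73) rose, ERO1B fell (-0.22) and HSPA5 was not called. A match describes letters and shows no binding.

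**Figure D3:**
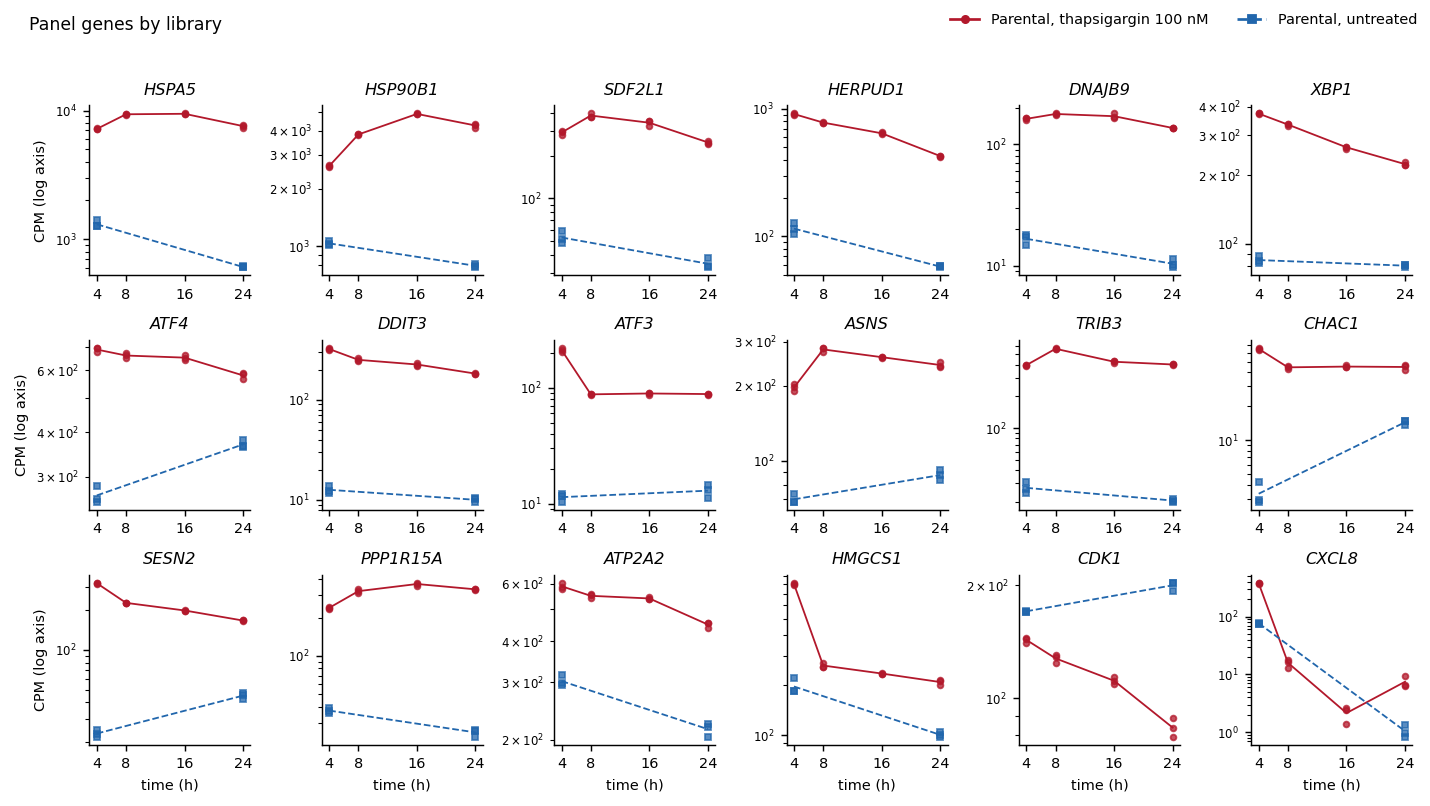
Level in CPM (log axis) of 18 genes by hours in Parental cells, in each library under thapsigargin (red circles, 4, 8, 16 and 24 h) and untreated (blue squares, 4 and 24 h), with lines through the means of 3 libraries. HSP90B1 ends above its 4 h level, DDIT3, HERPUD1 and SESN2 end below theirs, and HSPA5 reaches 9438 CPM at 16 h.

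Genes that dispose of misfolded proteins mostly rose, and HERPUD1 went against them. Of 22 ERAD genes 15 rose and 6 fell (median 0.35; 3 lower with limma on TPM), against 4 and 15 in untreated wells. EDEM3, which trims mannose from misfolded glycoproteins, rose from 40.3, 41.9 and 42.6 CPM to 103, 100 and 99.1 CPM (1.28 ± 0.05). OS9, a lectin that reads the trimmed glycan, rose from 279, 273 and 267 CPM to 584, 599 and 581 CPM (1.11 ± 0.04), and ERLEC1, a lectin of the same kind, rose from 117, 114 and 118 CPM to 222, 221 and 211 CPM (0.91 ± 0.04). The values of all 3 were close together within each group. HERPUD1, a scaffold of the ERAD ligase (chr16:56932048-56944863, plus strand), fell from 924, 911 and 896 CPM to 430, 430 and 418 CPM (-1.10 ± 0.05), with an adjusted p of 1.85e-38. HERPUD1 also fell in untreated wells from 127, 114 and 104 CPM to 57.1, 58.4 and 58.2 CPM (-1.0), and the interaction was -0.09 ± 0.07 (adjusted p = 0.328). Its promoter is shown beside those of the chaperones, at chr16:56931892-56932141 on the plus strand (250 bases before the start, RefSeq, GRCh38.p14). The capitals mark, in order, a reversed match to CARE, the element read by ATF4 (TGATGNAA), and a match to ERSE-II (ATTGG, 1 base, CCACG), which end 168 and 106 bases before the start.
HERPUD1: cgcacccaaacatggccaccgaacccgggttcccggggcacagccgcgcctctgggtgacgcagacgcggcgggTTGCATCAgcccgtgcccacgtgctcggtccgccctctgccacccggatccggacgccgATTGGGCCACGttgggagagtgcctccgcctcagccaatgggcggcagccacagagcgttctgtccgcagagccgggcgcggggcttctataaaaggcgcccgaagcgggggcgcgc
ERSE-II was in 15 of the 27305 promoters (0.0549%) and CARE in 1003 (3.67%), searched as above. Among the 13626 promoters of genes tested the numbers were 12 (0.0881%) and 291 (2.14%). ERSE-II was also in 2 of the 24 matched chaperone promoters (8.33%), those of HYOU1, which rose (0.64), and SDF2L1, which fell (-0.23).

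Entry into the ER, export from it and glycosylation moved the same way as the chaperones. Of 29 translocation and COPII genes 21 rose and 5 fell (median 0.47; 1 lower with limma on TPM), against 1 and 21 in untreated wells. SEC61G, a subunit of the translocation channel, rose from 67.1, 64 and 67.7 CPM to 161, 172 and 165 CPM (1.33 ± 0.06). SEC61A1, the pore itself, rose from 559, 565 and 570 CPM to 952, 971 and 926 CPM (0.75 ± 0.03), and SEC63, which works with BiP at the channel, rose from 129, 123 and 123 CPM to 225, 219 and 217 CPM (0.82 ± 0.03). Without drug all 3 fell, with log2 fold changes of -0.18, -0.24 and -0.26 in that order. Of 20 genes of the hexosamine pathway and N-glycosylation 16 rose and 3 fell (median 0.55; 0 lower with limma on TPM), against 2 and 14. GFPT1, the first enzyme of the hexosamine pathway, rose from 440, 454 and 452 CPM to 949, 950 and 922 CPM (1.07 ± 0.04). DPAGT1, which starts the lipid-linked glycan, rose from 41.7, 42.3 and 42.4 CPM to 90.1, 92.7 and 91.3 CPM (1.12 ± 0.04), and UGGT1, which tests the fold of glycoproteins, rose from 328, 338 and 329 CPM to 546, 538 and 541 CPM (0.71 ± 0.03).

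The sensors and transcription factors of the response parted. Of 16, 6 rose and 7 fell (median -0.04), and against untreated wells 13 were higher at 4 h and 15 at 24 h, with 0 lower. XBP1 fell from 370, 373 and 374 CPM to 222, 228 and 221 CPM (-0.74 ± 0.04), and DDIT3, which encodes CHOP, fell from 330, 319 and 316 CPM to 184, 183 and 181 CPM (-0.82 ± 0.06). Untreated levels of DDIT3 were 9.52 to 13.8 CPM over both times, far below both groups. ATF4 fell from 694, 692 and 674 CPM to 585, 589 and 566 CPM (-0.24 ± 0.03) and rose in untreated wells from 283, 254 and 259 CPM to 367, 380 and 363 CPM (0.48), an interaction of -0.72 ± 0.05. ATF3, a stress-induced factor downstream of ATF4, fell from 210, 205 and 221 CPM to 89.1, 89 and 86.7 CPM (-1.26 ± 0.06) and was already at a mean of 87.8 CPM at 8 h. EIF2AK3, which encodes PERK, fell from 164, 174 and 175 CPM to 100, 98.8 and 101 CPM (-0.77 ± 0.05). The risers were ATF6 (0.67), NFE2L1 (0.67), CREB3 (0.46), ERN1 (0.29) and MBTPS1 (0.35) and MBTPS2 (0.38), the proteases that release ATF6. NFE2L1, a regulator of proteasome genes, rose from 315, 321 and 317 CPM to 519, 507 and 494 CPM (0.67 ± 0.03).

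Targets of ATF4 and CHOP divided as well. Against untreated wells 32 of 32 were higher at 4 h (median 1.47), and 29 were higher and 1 lower at 24 h (median 1.5). Between the times 16 rose and 11 fell (median 0.09; untreated 17 and 11). ASNS, asparagine synthetase, rose from 190, 197 and 203 CPM to 240, 249 and 238 CPM (0.30 ± 0.04); its change without drug was 0.32, and the interaction was -0.02 ± 0.06 (adjusted p = 0.876), or -0.20 with an adjusted p of 0.0148 by limma on log2(TPM + 1). PYCR1, an enzyme of proline synthesis, rose from 270, 264 and 284 CPM to 511, 540 and 542 CPM (0.96 ± 0.04). PPP1R15A rose from 239, 233 and 243 CPM to 330, 337 and 332 CPM (0.48 ± 0.05) and fell in untreated wells from 39.4, 35.7 and 36.7 CPM to 26.4, 25.8 and 23.2 CPM (-0.57). Among secreted targets GDF15 rose by 2.00 and STC2 by 1.85, the latter beside 2.32 without drug.

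TRIB3, SESN2, DDIT4 and CHAC1, other members of this list, were level or lower. TRIB3, a pseudokinase that restrains ATF4 and CHOP, was at 399, 392 and 397 CPM at 4 h and 393, 408 and 404 CPM at 24 h, with overlapping groups (0.02 ± 0.06, adjusted p = 0.791) and a higher mean of 566 CPM at 8 h. It was called at 0.05 with only the libraries of the contrast in the fit. SESN2, which restrains mTORC1, fell from 325, 315 and 325 CPM to 165, 168 and 169 CPM (-0.95 ± 0.06) and rose in untreated wells from 24.5, 21.9 and 23.2 CPM to 45.8, 46.9 and 42.4 CPM (0.95). DDIT4, also known as REDD1 and another such restraint, fell from 471, 445 and 444 CPM to 123, 122 and 116 CPM (-1.91 ± 0.07) and rose in untreated wells from 17.6, 20.1 and 19.4 CPM to 64.1, 60.1 and 63.3 CPM (1.73), an interaction of -3.64 ± 0.11. CHAC1, which breaks down glutathione, fell from 65.1, 63 and 66.1 CPM to 45.4, 46.8 and 41.9 CPM (-0.53 ± 0.07) and rose in untreated wells from 4.27, 2.91 and 2.8 CPM to 14.8, 14.7 and 13.7 CPM (2.04). In these last 3 genes the treated and untreated levels drew nearer without meeting. ASNS and CHAC1 are shown as 2 genes with a CARE match that moved in opposite directions (250 bases before the start, RefSeq, GRCh38.p14, CARE in capitals). ASNS lies at chr7:97872409-97872658 on the minus strand, with its match ending 60 bases before the start, and CHAC1 at chr15:40953221-40953470 on the plus strand, with a reversed match ending 201 bases before it.
ASNS: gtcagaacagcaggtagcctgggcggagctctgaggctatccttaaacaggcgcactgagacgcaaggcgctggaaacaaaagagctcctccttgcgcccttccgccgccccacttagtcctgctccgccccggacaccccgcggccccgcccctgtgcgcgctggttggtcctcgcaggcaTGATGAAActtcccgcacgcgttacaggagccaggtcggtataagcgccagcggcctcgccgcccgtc
CHAC1: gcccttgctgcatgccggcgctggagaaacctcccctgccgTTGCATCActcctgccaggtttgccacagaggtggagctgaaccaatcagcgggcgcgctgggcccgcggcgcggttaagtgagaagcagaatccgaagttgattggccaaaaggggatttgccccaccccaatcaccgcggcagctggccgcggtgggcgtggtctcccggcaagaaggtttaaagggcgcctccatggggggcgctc
CARE was in 5 of the 26 matched promoters of this list (19.2%): ASNS and FGF21 (0.83) rose, and ATF3, CHAC1 and SLC3A2 (-0.13) fell.

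Enzymes that charge tRNAs mostly rose. Of 20 cytosolic aminoacyl-tRNA synthetases 13 rose and 2 fell (median 0.31; untreated 8 and 4). WARS, for tryptophan, rose from 284, 285 and 289 CPM to 708, 714 and 690 CPM (1.30 ± 0.05) while it fell without drug (-0.36), and VARS, for valine, rose from 204, 204 and 202 CPM to 342, 345 and 340 CPM (0.75 ± 0.04). QARS, for glutamine, fell from 169, 164 and 164 CPM to 102, 99.2 and 94.3 CPM (-0.75 ± 0.04). CARE was in 6 of the 16 matched promoters (37.5%), of which AARS, IARS, MARS and NARS rose and CARS and TARS were not called. Of 15 amino acid transporters 7 rose and 6 fell. SLC38A10 rose by 0.97 and the glycine carrier SLC6A9 by 0.82, while SLC7A5, a carrier of large neutral amino acids, fell from 1307, 1300 and 1307 CPM to 690, 686 and 683 CPM (-0.93 ± 0.04). Of 15 serine and one-carbon enzymes 5 rose and 7 fell. PHGDH, which opens serine synthesis, fell from 264, 263 and 267 CPM to 167, 176 and 170 CPM (-0.63 ± 0.03) but rose by 0.36 without drug, and TYMS, the thymidylate synthase, fell (-0.76).

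Genes of translation control, calcium and cell death moved in both directions, as genes at large did. Over all genes tested 25.2% rose and 28.3% fell, and of 14779 protein-coding genes 4213 rose and 5570 fell. Of 16 genes of eIF2, eIF2B and their kinases and phosphatases 4 rose and 7 fell (4 lower with limma on TPM), against 3 and 7 in untreated wells. EIF2B3, a subunit of the exchange factor eIF2B, rose from 34.7, 35.6 and 37.9 CPM to 56.7, 58.1 and 55.1 CPM (0.66 ± 0.06). Of 18 calcium genes 5 rose and 10 fell (6 lower with limma on TPM), against 2 and 10 in untreated wells. ATP2A2, which encodes SERCA2, a target of thapsigargin, fell from 578, 604 and 584 CPM to 456, 453 and 440 CPM (-0.39 ± 0.04). ATP2A2 fell in untreated wells from 315, 298 and 293 CPM to 219, 223 and 204 CPM (-0.49) too, with an interaction of 0.10 ± 0.06 (adjusted p = 0.194), called at 0.11 with only the libraries of the contrast. The inositol trisphosphate receptors, which release ER calcium, parted: ITPR1 rose from 33.5, 34.3 and 33.1 CPM to 81.1, 79.1 and 75 CPM (1.22 ± 0.06) and ITPR3 fell from 69.1, 73.4 and 72.4 CPM to 30.7, 32.2 and 30.3 CPM (-1.20 ± 0.05). CAMK2N1, an inhibitor of the kinase CaMKII, fell by 1.03. Of 28 apoptosis regulators 10 rose and 9 fell, against 10 and 13 in untreated wells. BIRC3, an inhibitor of apoptosis induced by NF-kB, fell from 145, 148 and 147 CPM to 3.17, 3.25 and 3.07 CPM (-5.53 ± 0.15). MCL1, a short-lived survival factor, fell from 474, 482 and 474 CPM to 280, 280 and 290 CPM (-0.75 ± 0.05), with -0.60 in untreated wells, and BOK, a BCL2 relative, fell by 1.15. BCL2, also a survival factor, rose by 1.51 and the death receptor FAS by 0.83.

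Inflammatory genes had the lowest median of the lists, and they fell without drug as well. Of 23 NF-kB and inflammatory genes 1 rose (IL1A, 1.98) and 21 fell, with a median of -2.57. Untreated wells had 0 and 21 (median -1.98), and the interaction was above 0 for 3 and below 0 for 13. CXCL8, which encodes the chemokine interleukin-8 (chr4:73740506-73743716), fell from 380, 365 and 389 CPM to 9.37, 6.69 and 6.35 CPM (-5.67 ± 0.16). The means were 15.9 CPM at 8 h and 2.14 CPM at 16 h, so the 24 h libraries were above the 16 h level. CXCL8 also fell in untreated wells from 78.8, 75.5 and 75.8 CPM to 0.976, 0.831 and 1.33 CPM (-6.21), and the interaction was 0.54 ± 0.44 (adjusted p = 0.369), called at 0.56 with only the libraries of the contrast. CCL2, a monocyte chemokine (chr17:34255218-34257203), had 49.3, 47.4 and 47.4 CPM at 4 h and 0, 0 and 0.041 CPM at 24 h. That is 4790 counts against 1. Divided by the TMM-scaled library totals of each group, as for all such ratios below, the ratio is 3244 (582 to 128176), where the bracket is the exact 95% interval for counting error only. LIF, a cytokine of the interleukin-6 family, fell from 400, 405 and 399 CPM to 34.7, 37.2 and 37.4 CPM (-3.46 ± 0.07), and TNFAIP2 fell by 3.05. SOD2, the mitochondrial superoxide dismutase, fell from 267, 258 and 248 CPM to 71.3, 72.1 and 71.5 CPM (-1.85 ± 0.04). Of 26 interferon-stimulated genes 7 rose and 9 fell, with the signal carrier STAT2 at 0.69 and the antiviral enzyme OAS3 at -1.78.

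Immediate early genes, which answer growth signals within minutes, fell beside them. Of 24 members 1 rose (KLF2, 0.48) and 22 fell, with a median of -1.83 (untreated 2 and 18, median -0.79). NR4A1, an orphan nuclear receptor, fell from 302, 285 and 282 CPM to 8.98, 9.18 and 9.92 CPM (-4.95 ± 0.09) and fell in untreated wells from 207, 198 and 181 CPM to 26.2, 24.4 and 28.2 CPM (-2.90). IER3 fell from 483, 466 and 460 CPM to 34.2, 35.9 and 37.7 CPM (-3.71 ± 0.07), against -1.24 without drug, and NR4A3 fell by 4.71. EGR4, a zinc finger factor (chr2:73290929-73293705), had 38.2, 36.7 and 30.3 CPM at 4 h and 0.0488, 0 and 0 CPM at 24 h, which is 3574 counts against 1, a scaled ratio of 2421 (434 to 95643). Untreated wells had 1.88 to 2.13 CPM at 4 h and 0.333 to 0.386 CPM at 24 h, between the treated groups.

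Cholesterol genes came down from an early rise. Of 24, 20 were higher than untreated at 4 h and 0 lower (median 1.0). From 4 to 24 h 1 rose and 21 fell (median -0.33; untreated 4 and 9), yet at 24 h 18 were higher than untreated and 4 lower (median 0.67). HMGCS1, which makes HMG-CoA (chr5:43289395-43313512, minus strand), fell from 797, 821 and 801 CPM to 213, 211 and 201 CPM (-1.95 ± 0.05). Its mean was 262 CPM by 8 h and 234 CPM by 16 h, and it fell in untreated wells from 220, 184 and 184 CPM to 99.9, 104 and 97.9 CPM (-0.97). STARD4, a carrier of sterols, fell from 387, 389 and 380 CPM to 168, 165 and 162 CPM (-1.22 ± 0.05), and IDI1, an isomerase of the pathway, fell by 1.02. Of 16 fatty acid genes 4 rose and 9 fell. SREBF1, the regulator of lipid synthesis, fell from 237, 238 and 230 CPM to 98.9, 101 and 99.5 CPM (-1.23 ± 0.06), with -0.02 (not called) in untreated wells. FASN, the fatty acid synthase, fell from 1166, 1174 and 1154 CPM to 602, 608 and 608 CPM (-0.94 ± 0.04), and the elongase ELOVL6 rose from 17.9, 18.1 and 17.4 CPM to 35.1, 36 and 34.7 CPM (0.99 ± 0.05).

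Most cell division genes moved in opposite directions with and without the drug. Of 30 mitosis genes 3 rose, AURKA (0.15), HMMR (0.16) and CENPA (0.19), and 25 fell, with a median of -0.56. In untreated wells 30 rose and 0 fell (median 0.74), and the interaction was below 0 for 30 (median -1.31). CDK1, the kinase that drives mitosis (chr10:60778331-60794852), fell from 144, 145 and 140 CPM to 83.4, 88.4 and 79 CPM (-0.77 ± 0.04) and rose in untreated wells from 170, 170 and 171 CPM to 203, 203 and 193 CPM (0.23). DLGAP5, a spindle protein, fell from 155, 157 and 154 CPM to 79.5, 76.4 and 72.1 CPM (-1.03 ± 0.04) and rose in untreated wells from 164, 164 and 158 CPM to 340, 342 and 334 CPM (1.06). In both genes the levels with and without drug were nearer each other at 4 h than at 24 h. AURKB, a mitotic kinase, fell from 52.8, 51.1 and 49.2 CPM to 19.4, 20 and 18.8 CPM (-1.40 ± 0.06), and NUSAP1 fell by 1.05. Between 16 and 24 h 0 of the 30 rose and 30 fell (median -0.59), whereas from 4 to 8 h 9 rose and 8 fell, and from 8 to 16 h 10 and 7.

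Replication genes mostly fell as well. Of 34, 1 rose (CDC6, 0.17; 2 with upper-quartile scaling) and 28 fell (median -0.65; untreated 8 and 9). RRM2, a subunit of the enzyme that makes deoxyribonucleotides, fell from 406, 410 and 396 CPM to 115, 123 and 115 CPM (-1.78 ± 0.05). LIG1, the replicative ligase, fell from 115, 115 and 114 CPM to 46.4, 45.5 and 46.4 CPM (-1.31 ± 0.05), and POLE, a replicative polymerase, fell by 1.01. Of 20 arrest and G1 regulators 6 rose and 11 fell. TXNIP, which binds thioredoxin, rose from 5.43, 5.64 and 4.18 CPM to 91.3, 91.1 and 79 CPM (4.06 ± 0.10), with a rise of 1.93 without drug. CDK6, a G1 kinase, fell from 259, 267 and 254 CPM to 124, 119 and 118 CPM (-1.12 ± 0.04), and GADD45B fell by 3.14. Of 23 p53 targets 12 rose and 8 fell, against 15 and 5 in untreated wells. TP53INP1 rose from 5.97, 5.72 and 5.25 CPM to 29.6, 28.5 and 28.9 CPM (2.34 ± 0.09), MDM2, the ligase of p53, rose by 0.83 and RRM2B by 0.79, and these 3 rose without drug too, by 1.48, 0.50 and 0.32. CDKN1A, which encodes the inhibitor p21, rose by 0.17, with -0.02 (not called) in untreated wells.

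Cytoskeletal genes fell almost throughout. Of 20 genes of the actin cytoskeleton and SRF targets 0 rose and 19 fell, with a median of -1.82 (untreated 0 and 18, median -0.74), and the interaction was below 0 for 19. ACTB, cytoplasmic actin, fell from 5386, 5372 and 5213 CPM to 1042, 1048 and 1046 CPM (-2.35 ± 0.05), and it fell in untreated wells from 6852, 6332 and 6384 CPM to 4294, 4443 and 4053 CPM (-0.61). TAGLN, an actin binder of contractile cells, fell from 295, 284 and 303 CPM to 15.4, 16.3 and 15.4 CPM (-4.22 ± 0.08), and TPM1, a tropomyosin, fell from 523, 521 and 498 CPM to 64.5, 64.9 and 60.1 CPM (-3.03 ± 0.05). VCL, which links actin to adhesions, fell by 2.12. Of 14 genes often used as references 2 rose (1 after thinning all libraries to one depth) and 11 fell, among them ACTB, YWHAZ (-0.67) and GAPDH (-0.17). Of 18 YAP and TEAD targets 1 rose (AJUBA, 0.27) and 16 fell (median -0.99). CYR61, a matricellular protein, fell from 438, 464 and 479 CPM to 135, 147 and 146 CPM (-1.69 ± 0.06), against -1.29 without drug, and MYOF fell by 1.47.

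Matrix genes fell with them. Of 28, 3 rose and 21 fell, with a median of -0.98 (untreated 0 and 21, median -0.51). THBS1, the secreted protein thrombospondin 1, fell from 1598, 1595 and 1441 CPM to 31.4, 29.6 and 32.4 CPM (-5.63 ± 0.07), with an adjusted p of 2.94e-82, and it fell in untreated wells from 2026, 2101 and 2028 CPM to 620, 555 and 637 CPM (-1.76). COL3A1, a fibrillar collagen, fell from 192, 184 and 176 CPM to 22.3, 24.1 and 20.4 CPM (-3.05 ± 0.07), and COL6A1 fell by 2.32. COL1A1, the main collagen of bone, fell from 2769, 2696 and 2589 CPM to 1284, 1272 and 1231 CPM (-1.09 ± 0.05), with -0.11 (not called) without drug, and VIM, the intermediate filament of mesenchymal cells, fell from 1953, 1940 and 1853 CPM to 1206, 1223 and 1180 CPM (-0.67 ± 0.03). The risers were TNC (0.90), COL6A2 (0.83) and LOX (0.52). THY1, a mesenchymal surface marker, fell by 1.98. ESRP1, an epithelial splicing factor, rose from 2.24, 1.91 and 2.28 CPM to 17.7, 19.9 and 16.2 CPM (3.07 ± 0.10), with 0.0416 to 0.0969 CPM in untreated wells. KRT8, an epithelial keratin, fell by 1.08. Of 17 secreted stress factors 6 rose and 8 fell (median -0.59), and untreated wells had 5 and 9 (median -0.58). The interaction was above 0 for 7 and below 0 for 7. INHBA, a subunit of activin, fell from 401, 408 and 392 CPM to 26.9, 27.8 and 27.7 CPM (-3.87 ± 0.06). The growth factor HBEGF fell from 141, 138 and 137 CPM to 6.84, 7 and 6.31 CPM (-4.37 ± 0.09).

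Antioxidant genes mostly rose, and cytosolic heat shock genes parted. Of 25 NRF2 genes 17 rose and 5 fell (median 0.30). SRXN1, which restores peroxiredoxins, rose from 91.6, 90.7 and 89.3 CPM to 198, 209 and 198 CPM (1.15 ± 0.04) and fell by 0.61 without drug, and OSGIN1 rose from 31.7, 31.3 and 31.1 CPM to 92, 97.1 and 100 CPM (1.62 ± 0.05). Of 25 HSF1 genes 9 rose and 12 fell, against 20 and 1 in untreated wells. HSP90AA1, the inducible cytosolic Hsp90, fell from 708, 727 and 699 CPM to 351, 361 and 356 CPM (-1.0 ± 0.04) and rose by 0.30 without drug. The small heat shock genes HSPB1 and CRYAB had log2 fold changes of -1.41 and -2.14. Of 10 metallothioneins and zinc transporters 0 rose and 5 fell, and untreated wells had 0 and 5 too. The interaction was above 0 for 1 and below 0 for 3. With thapsigargin MT2A was at -1.28, MT1X at -0.97 and the zinc exporter SLC30A1 at -0.67. The metallothioneins are near-identical in sequence, so their single values are uncertain.

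Hypoxia and glycolysis genes mostly fell, nuclear respiratory chain genes moved in both directions, and more ribosomal protein genes rose than fell. Of 26 hypoxia and glycolysis genes 6 rose and 17 fell (11 with limma on log2(TPM + 0.1)). LDHA, lactate dehydrogenase, fell from 638, 645 and 635 CPM to 324, 328 and 307 CPM (-1.0 ± 0.03) and PKM, pyruvate kinase, fell from 2085, 2076 and 2135 CPM to 1222, 1270 and 1212 CPM (-0.77 ± 0.03), while PFKP fell by 1.11. Of 28 nuclear respiratory chain genes 9 rose and 9 fell (4 with limma on TPM, 5 with upper-quartile scaling), with SDHA at -0.51, ATP5A1 at -0.37 and UQCRC2 at -0.28, the last with an adjusted p of 0.106 by limma on log2(TPM + 1). Of 13 mitochondrially encoded genes 0 rose and 6 fell, a count that was 2 with upper-quartile scaling or limma on TPM, 10 with only the libraries of the contrast, and 3 without Parental thapsigargin 24 h replicate 3. MT-ND6, a subunit of complex I, fell from 518, 531 and 517 CPM to 416, 395 and 382 CPM (-0.39 ± 0.05), and MT-ND5 fell by 0.36. MT-ATP8 fell by 0.21, with an adjusted p of 0.0935 without that library. Of 76 cytosolic ribosomal protein genes 36 rose and 11 fell (7 with limma on TPM), with a median of 0.13, against 0 and 4 in untreated wells. The interaction was above 0 for 31 and below 0 for 5. Changes ran from RPL3 at -0.41 to RPL12 at 0.60. Many of these genes have near-identical copies, so single values are uncertain.

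Of 30 ribosome biogenesis genes 3 rose (6 with upper-quartile scaling) and 19 fell, and untreated wells had 1 and 26. NOLC1, NOP56 and POLR1B, which serve the nucleolus, had log2 fold changes of -0.59, -0.49 and -0.48, against -0.65, -0.44 and -0.54 without drug. Of 28 autophagy and lysosome genes 13 rose and 8 fell. WIPI1, which acts at the forming autophagosome, rose from 52.6, 51.6 and 47.9 CPM to 166, 166 and 151 CPM (1.66 ± 0.05) and fell by 0.31 without drug. The lysosomal protease CTSB fell from 474, 459 and 455 CPM to 143, 148 and 140 CPM (-1.69 ± 0.05), and CTSL, another, fell by 1.04. Of 18 circadian clock genes 3 rose, NPAS2 (0.50), ARNTL (0.41) and NFIL3 (0.38), and 12 fell. PER1, a repressor of the clock, fell from 215, 203 and 197 CPM to 43.2, 39.4 and 43.9 CPM (-2.28 ± 0.06), against -0.19 without drug, and PER2, another, fell from 81.1, 85.9 and 83.7 CPM to 21.2, 18.3 and 21.8 CPM (-2.03 ± 0.06), against -0.45.

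Among genes that reached 5 CPM in either group, the 10 with the highest fold changes had low levels at 4 h. OLAH, a thioesterase of fatty acid synthesis (chr10:15032227-15073852), rose from 1.15, 1.21 and 0.976 CPM to 101, 101 and 103 CPM (6.47 ± 0.12), and had 0 to 0.63 CPM in untreated wells over both times. SPX, which encodes the peptide spexin, rose from 6.58, 7.31 and 7.57 CPM to 261, 266 and 267 CPM (5.22 ± 0.06), with 0.727 to 1.76 CPM untreated. SPRR2D, a gene of the cornified envelope (chr1:153039725-153041931), rose from 0.319, 0.349 and 0.232 CPM to 38.4, 36.5 and 38.8 CPM (6.90 ± 0.17); it has near-identical neighbours in its family, so its value is uncertain. MARCO, a scavenger receptor, rose from 1.38, 1.69 and 1.49 CPM to 34, 37 and 33.8 CPM (4.52 ± 0.11), and STK32A, a kinase, rose from 1.13, 0.752 and 1.16 CPM to 45.7, 41.6 and 41.8 CPM (5.43 ± 0.11). KEL, a membrane protease that carries the Kell antigen, rose from 0.221, 0.349 and 0.325 CPM to 5.47, 5.53 and 5.37 CPM (4.20 ± 0.21). VEPH1 and PAPPA2 rose by 4.89 and 4.45. TATDN2P3, a processed pseudogene, rose from 0.319, 0.0806 and 0.0465 CPM to 10.9, 9.14 and 10.4 CPM (5.85 ± 0.22), and its value is uncertain because reads may be shared with other genes. In all 10 the mean was higher at 16 h than at 8 h, and in 9 it was higher still at 24 h, VEPH1 being the exception.

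The lowest 10 by the same rule were CCL2, EGR4, XIRP1, CYP24A1, RSPO3, CSF2, C8orf4, CXCL14, KRT75 and KRTAP2-3. XIRP1, an actin-binding protein of muscle, had 1591 counts at 4 h and 2 at 24 h, a scaled ratio of 539 (149 to 4453). CYP24A1, which inactivates vitamin D, went from 7.22, 6.61 and 8.18 CPM to 0.0488, 0 and 0 CPM, a scaled ratio of 485 (86.8 to 19182). For RSPO3, an enhancer of Wnt signals, the scaled ratio was 280 (95.5 to 1358), and for the cytokine CSF2 it was 268 (73.9 to 2216). CXCL14, a chemokine, fell from 99.2, 87 and 78.4 CPM to 0.488, 0.401 and 0.533 CPM (-7.53 ± 0.24), while in untreated wells it had 93.5, 142 and 132 CPM and then 155, 121 and 168 CPM (0.29). KRT75, a hair follicle keratin, fell from 21.8, 21 and 21.6 CPM to 0.0488, 0.134 and 0.164 CPM (-7.44 ± 0.22), with -0.09 (not called) untreated; keratins share sequence, so this value is uncertain. C8orf4 fell by 7.55. DRD1, a dopamine receptor, had one of the lowest interactions, -8.87 ± 0.38: it fell from 10.8, 11.4 and 9.48 CPM to 0.0976, 0.0446 and 0.082 CPM (-7.08 ± 0.40) and rose in untreated wells from 10.4, 12.9 and 13 CPM to 42.4, 38.1 and 42.1 CPM (1.79). LRRC15, a membrane protein of mesenchymal cells, had 258 counts at 4 h and 0 at 24 h, at least 58.3-fold lower by the same scaling, against a floor of 3 counts over the group. Among the genes that rose most without drug, RNF43, a brake on Wnt signals, rose in untreated wells from 1.24, 1.07 and 1.58 CPM to 16.3, 14.1 and 18.1 CPM (3.64) and had -0.45 (not called) with thapsigargin.

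The order of these changes was read from the 8 and 16 h libraries. From 4 to 8 h 10304 genes were called (38.2%), from 8 to 16 h 9331 (34.6%) and from 16 to 24 h 6103 (22.6%). Of the called genes of the last step 45.5% were higher, and with limma on log2(TPM + 1) 70.5% were. For the middle step the share higher was 43.5%, and 53.8% with upper-quartile scaling. Of the 2020 genes at least 2-fold higher at 24 h, the largest step in the mean was from 4 to 8 h for 637, from 8 to 16 h for 1014 and from 16 to 24 h for 369. Of the 2728 at least 2-fold lower the numbers were 1317, 1142 and 269. By 8 h the lower genes had passed a median of 48.9% of their log2 change and the higher genes 30.5%, and by 16 h 94.4% and 76.2%. At 8 or 16 h 1144 of the lower genes were below their 24 h level, 37 of them by at least 2-fold, CXCL8 among them. These genes were chosen on the 4 and 24 h libraries and the steps share libraries, so the values are a description.

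**Figure D4:**
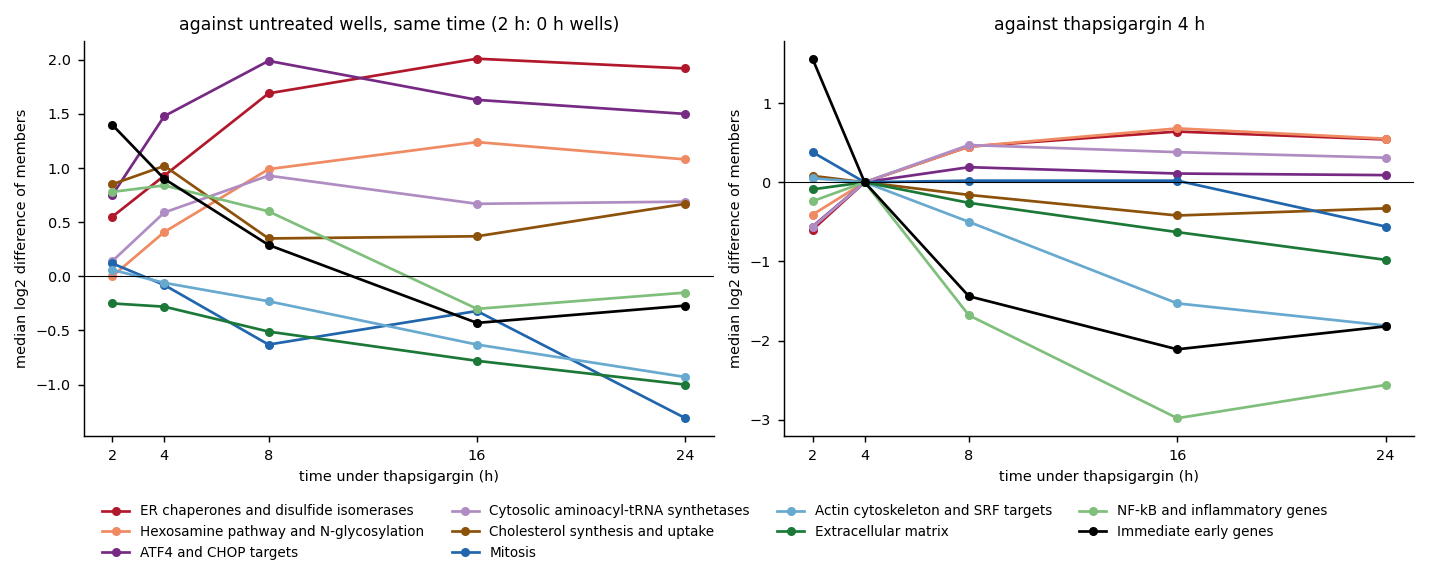
Median log2 difference of the members of selected gene lists by hours of thapsigargin in Parental cells, against untreated wells of the same time on the left (2 h against untreated 0 h) and against thapsigargin at 4 h on the right. ER chaperones go from 0.55 at 2 h to 2.01 at 16 h above untreated, ATF4 and CHOP targets reach 1.99 at 8 h, and mitosis genes go from -0.32 at 16 h to -1.31 at 24 h.

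By list, from group means rather than the fit, ER chaperones stood above untreated by medians of 0.55, 0.93, 1.69, 2.01 and 1.92 at 2, 4, 8, 16 and 24 h. ATF4 and CHOP targets stood at 0.75, 1.48, 1.99, 1.63 and 1.5, and tRNA synthetases at 0.14, 0.59, 0.93, 0.67 and 0.69. The chaperones thus had their highest median at 16 h and both other lists theirs at 8 h. From 16 to 24 h 0 of the 26 chaperones rose and 16 fell (median -0.18). Over all genes the direction of this step depended on the setting, as given above. List counts of single steps come from the main fit only and were not run under other settings. Immediate early genes went from 1.40 at 2 h to -0.43 at 16 h, and cholesterol genes from 1.02 at 4 h to 0.35 at 8 h and 0.67 at 24 h.

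Dmr-PERK cells under thapsigargin gave a second set of 6 libraries with none in common. There 7046 genes rose from 4 to 24 h (26.1%) and 7553 fell (28%), a share higher of 48.3%, or 56.9% with upper-quartile scaling. Genes that rose in both lines numbered 4902 (72% of the Parental and 69.6% of the Dmr-PERK list) and genes that fell in both 5823 (76.2% and 77.1%), while 266 and 214 had opposite calls. Across the 26998 genes r was 0.625. The change in Parental minus the change in Dmr-PERK cells was above 0 for 3467 genes (12.8%) and below 0 for 2935 (10.9%); of the called genes 54.2% were above 0, 49.4% with upper-quartile scaling and 66.6% with limma on log2(TPM + 1). Dmr-PERK thapsigargin 24 h replicate 3 had the highest TMM factor of the series, 1.169, and without it the counts were 2853 and 2841.

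The lines differed in central genes of the response. HSPA5 went from 9344, 9092 and 9202 CPM to 6683, 6527 and 5987 CPM in Dmr-PERK cells (-0.53), and the difference between the lines was 0.60. HERPUD1 went from 1319, 1244 and 1199 CPM to 295, 288 and 273 CPM there (-2.14), a difference of 1.04. For DDIT3 the difference was 0.80, for ASNS -0.72 and for CXCL8 -2.74. Of the 26 ER chaperones 14 rose and 9 fell in Dmr-PERK cells (median 0.13), and the line difference was above 0 for 14 and below 0 for 1. Of the 76 ribosomal protein genes 72 rose and 0 fell there, with the difference below 0 for 68. HAPLN1, a link protein of cartilage matrix (chr5:83637805-83721613), fell from 74.2, 75.5 and 69.5 CPM to 23.6, 23.6 and 21.5 CPM (-1.68 ± 0.09) in Parental cells and went from 27.6, 26.2 and 24.3 CPM to 0.838, 1.03 and 0.78 CPM in Dmr-PERK cells (-4.91). RGS4, a brake on G protein signals (chr1:163068775-163076802), fell from 32, 29.4 and 29.4 CPM to 0.488, 0.446 and 0.82 CPM (-5.66 ± 0.16) in Parental cells, and was at 3.35, 2.97 and 2.66 CPM and then 3.04, 3.09 and 2.5 CPM in Dmr-PERK cells (-0.11, not called). NTRK3, a neurotrophin receptor (chr15:87859751-88256768), fell from 21.4, 20.1 and 17.8 CPM to 1.51, 1.6 and 1.39 CPM (-3.73 ± 0.12) in Parental cells and was at 2.64 to 2.97 CPM and then 2.67 to 3.51 CPM in Dmr-PERK cells (0.20, not called). For RGS4, NTRK3 and HAPLN1 the 4 h levels of the lines were already apart. So were those of the central genes. Means at 4 h in Parental and Dmr-PERK cells were 7197 and 9213 CPM for HSPA5 and 911 and 1254 CPM for HERPUD1. For DDIT3 the means were 322 and 495 CPM at 4 h and 183 and 161 CPM at 24 h. CXCL8 had 378 and 964 CPM, then 7.47 and 127 CPM, and ASNS 197 and 169 CPM, then 242 and 344 CPM.

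**Figure D5:**
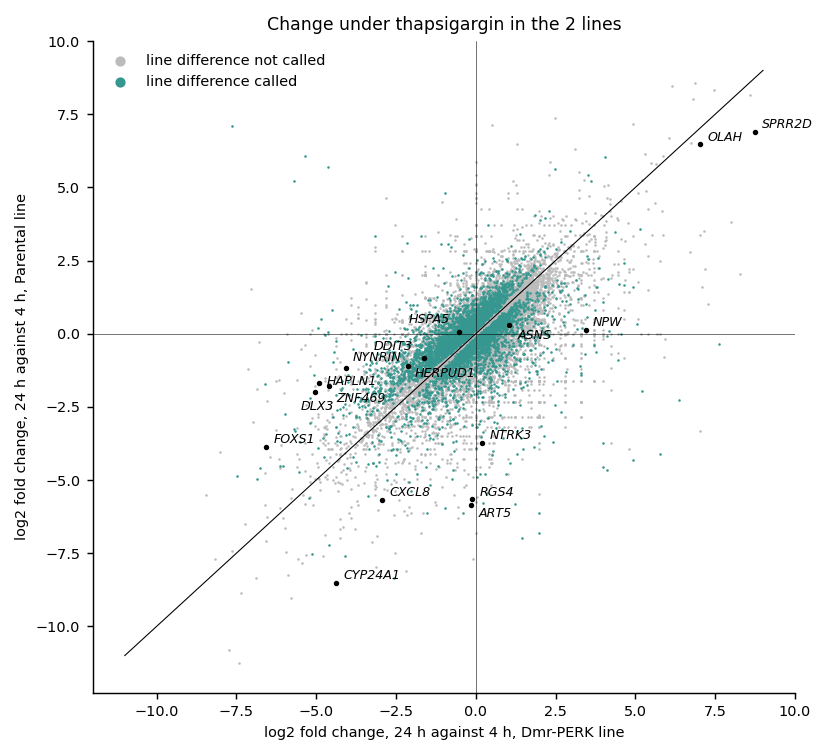
Log2 fold change, 24 h against 4 h of thapsigargin, in Parental cells (vertical axis) against Dmr-PERK cells (horizontal axis) for the 26998 genes tested. Teal points are the 6402 genes whose change differed between the lines, other genes are grey, named genes are black, and the diagonal marks equal change; RGS4 and NTRK3 lie below it and HAPLN1 above it.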

How the data were processed

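RNA of U2OS cells was measured in 120 libraries, 40 groups of 3. The authors deposited estimated counts per gene and a TPM table; per the submitters' processing notes they were made with Salmon 0.9.1 after FastQC 0.11.5, on GRCh38. The annotation and the use of strand are not given in the sources used here. Of non-zero deposited estimated counts 49.5% were whole (tolerance 1e-05), and all were rounded before testing. In the deposited TPM table entries with a count of 0 were listed at 0.063122, and columns summed to 1001150 to 1001825. No column was left without a sample (0 unmapped). Positions came from GENCODE 29, in which 53330 of 57665 identifiers had the same version.

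All 120 libraries (totals 12900000 to 56500000) were fitted together with edgeR 4.0.16 (R 4.3.3): expression filter at a minimum count of 10, TMM scaling (0.839 to 1.169), quasi-likelihood tests with 80 residual degrees of freedom, and Benjamini-Hochberg adjustment over the 26998 genes left, called at 0.05. DESeq2 1.42.0 and limma 3.58.1 served as alternatives, beside other scalings, filters, sets of libraries, left-out libraries, a replicate block and thinning. Replicates differed by more than sampling noise. The chi-square of counts per degree of freedom was 1.55 to 1.8 between the Parental thapsigargin 24 h libraries and 1.73 to 2.09 between those at 4 h. It was far higher against 2 libraries of arsenite-treated wells. These were Parental 24 h replicate 3 (50.5 and 53.2) and Dmr-PERK 4 h replicate 3 (15.3 and 14.3). Both are in the shared fit and in no comparison given here. Genes with at most 3 counts over a group were given as ratios of counts divided by TMM-scaled library totals, with exact 95% intervals, which cover counting error only.

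The comparison, the gene lists, the motifs and the rule for named genes were chosen with earlier results of these data known. The rule took a panel of 18 genes, the 10 highest and 10 lowest fold changes at 5 CPM or more with no overlap between groups, 3 members a list by smallest adjusted p, and the 5 highest and lowest interactions and line differences and 3 highest and lowest untreated changes. Other genes, such as SIL1, STC2, GDF15, BCL2, and the few risers or fallers of a list, were named after their values were seen. Some genes that the rule names are not reported here.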

Additional observations from a re-analysis of the deposited data

Results flagged for a closer look

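The change from 4 to 24 h of thapsigargin differed between Parental and Dmr-PERK cells for 6402 genes by the test of the difference itself (edgeR's quasi-likelihood test, Benjamini-Hochberg adjusted). Among those named by rule, the Parental log2 change minus the Dmr-PERK change was highest for HAPLN1 (3.23), DLX3 (3.05), NYNRIN (2.90), ZNF469 (2.83) and FOXS1 (2.70). These 5 fell in both lines, with log2 changes of -1.68, -1.99, -1.18, -1.77 and -3.87 in Parental cells and of -4.91, -5.04, -4.08, -4.60 and -6.56 in Dmr-PERK cells. With limma on log2(TPM + 1) the difference was -0.57 for ZNF469 (adjusted p = 6.32e-07), the opposite sign, and 0.02 for DLX3 (adjusted p = 0.985). FOXS1 was not called without Dmr-PERK thapsigargin 24 h replicate 3 (adjusted p = 0.102) or without Parental thapsigargin 24 h replicate 3 (adjusted p = 0.0513). The difference was lowest for ART5 (-5.69), RGS4 (-5.56), CYP24A1 (-4.15), NTRK3 (-3.93) and NPW (-3.31). ART5 was not called without Dmr-PERK thapsigargin 24 h replicate 3, and CYP24A1 was not called with limma on log2(TPM + 1). ART5 had 0.0781 to 0.112 CPM at 4 h and 0 to 0.162 CPM at 24 h in Dmr-PERK cells, near the floor of counting, and the CYP24A1 value rests on 1 count in the Parental 24 h libraries. NPW, which encodes neuropeptide W, was at 5.11, 5 and 4.46 CPM and then 5.57, 5.04 and 5.61 CPM in Parental cells (0.14, not called) and rose by 3.45 in Dmr-PERK cells.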

How the results depend on the processing

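The count of genes called between 4 and 24 h of thapsigargin in Parental cells was 14449, and 12114 to 14957 over 10 other settings (DESeq2's Wald test or size factors, upper-quartile scaling, no filter or a filter at 1 CPM in 3 libraries, limma on log2(TPM + 1) or log2(TPM + 0.1), the libraries of the contrast alone with or without a block, and thinning). Thinning all libraries to the depth of the shallowest was chosen after seeing the data and gave 12621. Leaving out 1 of the 6 libraries gave 13427 to 13933. Calls shared with the 14449 had the same sign in all settings except limma on TPM, where 19 and 18 had the opposite sign. Counts over all genes that moved by over 1.5 times did so with limma on TPM, and the cause was not tested. Counts within gene lists also moved, in 32 cases under another setting, upper-quartile scaling among them, and in 5 on leaving out a library. For Parental untreated 24 h against 4 h, genes lower were 3426 with log2(TPM + 1) and 3298 with log2(TPM + 0.1), against 5512. For Parental thapsigargin 24 h against 16 h the called genes were 4026 and 3714 against 6103. For Parental thapsigargin 24 h against 16 h, genes lower were 1188 and 1175 against 3324. Line differences below 0 were 1515 and 1357 against 2935. With log2(TPM + 0.1) alone, genes lower than untreated at 4 h were 3476 against 5325, genes higher from 4 to 8 h 3341 against 5103, and all line differences 4164 against 6402. In the last step 68.4% of calls were higher with log2(TPM + 0.1), and 67.4% of line differences were above 0. Upper-quartile scaling moved the median change in Dmr-PERK cells by 0.11.

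The line difference of ZNF469 reversed, from 2.83 to -0.57 (adjusted p = 6.32e-07) and -0.35 (adjusted p = 0.25) with limma on log2(TPM + 1) and log2(TPM + 0.1). For ART5 it was -4.14 (adjusted p = 0.339) without Dmr-PERK thapsigargin 24 h replicate 3. For FOXS1 it was 1.88 (adjusted p = 0.102) without that library and 2.35 (adjusted p = 0.0513) without Parental thapsigargin 24 h replicate 3. CYP24A1 (-0.54) and DLX3 (0.02) were not called with limma on log2(TPM + 1).

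The main fit did not pair wells by replicate number. Same-numbered 4 and 24 h Parental thapsigargin libraries deviated together with correlations of 0.008, 0.005 and 0.026, and differently numbered ones with -0.022 to 0.014. Between Parental thapsigargin and untreated libraries at 24 h the same-numbered values were 0.018, 0.012 and 0.034, above the highest other, 0.008. In Dmr-PERK cells under thapsigargin, 4 and 24 h, they were 0.021, 0.039 and 0.119, and the highest other was 0.051. With the number as a block and only the libraries of the contrast in the fit, 14708 genes were called, 13855 of them shared with the 14449.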
